A study of Mus musculus with 12 samples.

Results

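Transcript levels of 10 AP-1 and early response transcription factors were followed in RAW264.7 cells, an established mouse macrophage line. The genes are Fos, Fosb, Fosl2, Jun, Junb, Jund, Egr1, Egr2, Atf3 and Batf, taken by symbol from a table of 38215 genes, and each matched 1 row. Sequencing of polyadenylated RNA covered 12 libraries, with 3 replicates in each of 4 groups. Control non-targeting siRNA or SF3a1 siRNA was transfected 24 hours before the cells were left without LPS or exposed to 20 ng/ml LPS for 4 hours. Each siRNA was thus combined with each LPS state, and every library, controls included, comes from transfected cells. SF3a1 is a subunit of the SF3a complex of the U2 snRNP, which recognises the branch point of introns, and LPS is the bacterial cell wall component sensed by TLR4. The cells are of 1 line, derived from BALB/c mice, and the siRNA lowers SF3a1 without removing it. By the study's methods each treatment was carried out 3 times, but whether on separate days or passages of the cells is not given in the sources used here, so the tests measure the spread between these treatments of 1 line.

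AP-1 is a dimer of basic leucine zipper proteins. Fos family proteins (here c-Fos, FosB and Fra-2, the product of Fosl2) do not pair with each other and bind DNA as partners of Jun family proteins (c-Jun, JunB and JunD). ATF3 and BATF belong to the same superfamily and also pair with Jun proteins, and ATF3 is known in macrophages for restraining TLR-driven cytokine genes. EGR1 and EGR2 are zinc finger proteins that are not part of AP-1 but are made in the same early wave. Many of these genes are immediate early genes, transcribed within minutes of a stimulus from proteins already present in the cell, and their mRNAs are short-lived, so that a sample taken hours after LPS shows what follows the first peak.

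Windows of 250 nt before the transcript start (RefSeq, GRCm38.p6) were available for 9 members. They were searched on both strands for 4 kinds of letters: TGACTCA or TGAGTCA (AP-1 element), TGACGTCA (cAMP response element), the CArG box bound by serum response factor, and GCGTGGGCG or GCGGGGGCG (EGR letters). Among 32851 such windows of all genes, 4.46% held the AP-1 element, 1.55% the cAMP response element, 1.47% a CArG box and 3.06% the EGR letters. None of the 9 members had the AP-1 element or the cAMP response element in its window, which says only that these letters are not in these windows. The EGR letters stood 50 nt before the start of Fosb and 79 nt before that of Fosl2, and a CArG box stood 72 nt before a start of Egr2. The windows of Fos, Junb and Egr2 are shown as 1 example each of the Fos, Jun and EGR families, with the matched letters in capitals where there are any. They are Fos (chr12:85473640-85473889, forward strand), Junb (chr8:84978749-84978998, reverse strand) and Egr2 (chr10:67537619-67537868, forward strand).
Fos: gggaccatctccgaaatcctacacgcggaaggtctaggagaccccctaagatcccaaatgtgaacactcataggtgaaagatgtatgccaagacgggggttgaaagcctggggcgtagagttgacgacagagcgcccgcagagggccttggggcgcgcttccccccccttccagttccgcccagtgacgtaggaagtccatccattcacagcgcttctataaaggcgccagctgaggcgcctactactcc
Junb: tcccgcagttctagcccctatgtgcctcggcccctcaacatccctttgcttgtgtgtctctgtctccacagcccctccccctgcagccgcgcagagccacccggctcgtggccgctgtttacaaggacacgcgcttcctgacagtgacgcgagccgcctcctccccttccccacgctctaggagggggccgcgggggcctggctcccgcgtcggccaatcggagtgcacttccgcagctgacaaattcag
Egr2: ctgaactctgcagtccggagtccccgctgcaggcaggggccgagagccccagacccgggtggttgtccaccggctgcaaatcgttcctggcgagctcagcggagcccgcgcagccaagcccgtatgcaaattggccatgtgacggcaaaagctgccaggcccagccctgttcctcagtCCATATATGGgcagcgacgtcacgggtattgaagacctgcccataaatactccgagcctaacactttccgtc
The capitals in Egr2 mark the CArG box. This Egr2 window lies directly before one of the annotated starts of the gene, and the 8 exon bins that follow it had a summed bin count of 296 in the 3 libraries with control siRNA and no LPS, against 9 on the 3 bins of the start farther upstream. With SF3a1 siRNA and no LPS the sums were 543 and 27. Reads lying across bin borders enter more than one bin, so these sums are not numbers of reads, and they are not scaled for depth between groups. Other annotated starts of Egr2 lie among the 8 bins, and the sets of bins differ in length. The sums therefore do not measure the use of any single start. A match in a window is a description of the letters and not of binding.

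Reads counted on genes ran from 12746019 to 41091887 per library, and replicate 1, sequenced in 2 runs, was the deepest of every group. The 10 members together took 0.056 to 0.077% of these reads with control siRNA without LPS and 0.133 to 0.152% with LPS. With SF3a1 siRNA they took 0.146 to 0.198% without LPS and 0.137 to 0.223% with LPS. Levels are given as CPM, the count relative to the library total after TMM scaling, as mean ± SD over 3 libraries unless single libraries are listed in the order of replicates 1, 2 and 3. Sf3a1 itself stood at 173, 216 and 185 CPM with control siRNA without LPS and at 27.1, 27.5 and 32.1 CPM with SF3a1 siRNA, which is 15.1% of the control mean. With LPS it stood at 150, 194 and 157 CPM against 30.3, 26.7 and 45.0 CPM, or 20.3%. The knockdown labels thus held in all 6 libraries.

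The macrophage label was checked against 12 marker genes, and 11 of them passed 1 CPM in all libraries. Lyz2 (lysozyme) was the most abundant, between 4980 and 9890 CPM. The lists of other cell types were at or near 0, apart from Ighm (an immunoglobulin heavy chain) at 4.18 to 103 CPM and Lck (a kinase of lymphocytes) at 1.81 to 13.7 CPM. The 6 B cell markers summed to 95 CPM with control siRNA without LPS, 45.8 CPM with LPS, 17.9 CPM with SF3a1 siRNA without LPS and 12.3 CPM with LPS, nearly all of it Ighm, while Cd79a reached at most 0.363 CPM. The 8 T cell markers summed to 2.29, 12.2, 2.81 and 4.84 CPM in the same order, nearly all of it Lck, and Cd8a and Trac had 0 counts in all 12 libraries. The 9 fibroblast and epithelial markers summed to at most 0.553 CPM in any library and the 8 neutrophil and mast cell markers to at most 1.51 CPM. Reads that the counting assigned to no gene made up 17.85 to 19.63% with control siRNA without LPS and 17.75 to 19.83% with LPS. With SF3a1 siRNA they made up 20.83 to 27.2% without LPS and 18.2 to 21.37% with LPS. They can include reads in introns of annotated genes, which were not told apart here. The part of these shares and of Ighm and Lck in the results was not tested. In RNA from whole cultures, a change in the RNA per cell and a change in how many cells carry it cannot be told apart.

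Junb had the highest mean level in every group when levels were divided by the length of the coding transcript (CPM per kb), but with SF3a1 siRNA its libraries overlapped those of Fos in both LPS states, and in replicate 3 Fos was above Junb (189 against 166 CPM per kb without LPS and 278 against 265 CPM per kb with LPS). With control siRNA and no LPS the order was Junb, Jund at 49.1, Fos at 47.2, Fosl2 at 19.5, Atf3 at 12.8, Jun at 11.7, Egr1 at 4.81, Egr2 at 3.64 and Fosb at 0.0884 CPM per kb, with Batf at 0 counts. Libraries of Jund and Fos, of Atf3 and Jun, and of Egr1 and Egr2 overlapped, so the order within these pairs was not resolved. After LPS with control siRNA the leading level was Junb at 423 CPM per kb, followed by Fos at 86.0, Atf3 at 81.1 and Jund at 68.7 CPM per kb, and the libraries of Fos overlapped those of Atf3, as did those of Atf3 and Jund. With SF3a1 siRNA and no LPS, Junb (191 CPM per kb), Fos (169 CPM per kb) and Fosl2 (129 CPM per kb) led, each overlapping the next. There Atf3 (5.02 CPM per kb) and Egr1 (3.70 CPM per kb) stood behind Egr2 (10.7 CPM per kb), whereas with control siRNA and no LPS both stood ahead of it in the order of means. With SF3a1 siRNA and LPS the order of means was Junb (317), Fos (258), Fosl2 (83.1) and Jund (63.9 CPM per kb), with Atf3 at 15.1, Egr2 at 7.95 and Egr1 at 2.72 CPM per kb, and the libraries of Atf3 and Egr2 overlapped. Fosb and Batf were the lowest 2 members in each group. The plot of levels by library shows all 10 genes.

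**Figure D1:**
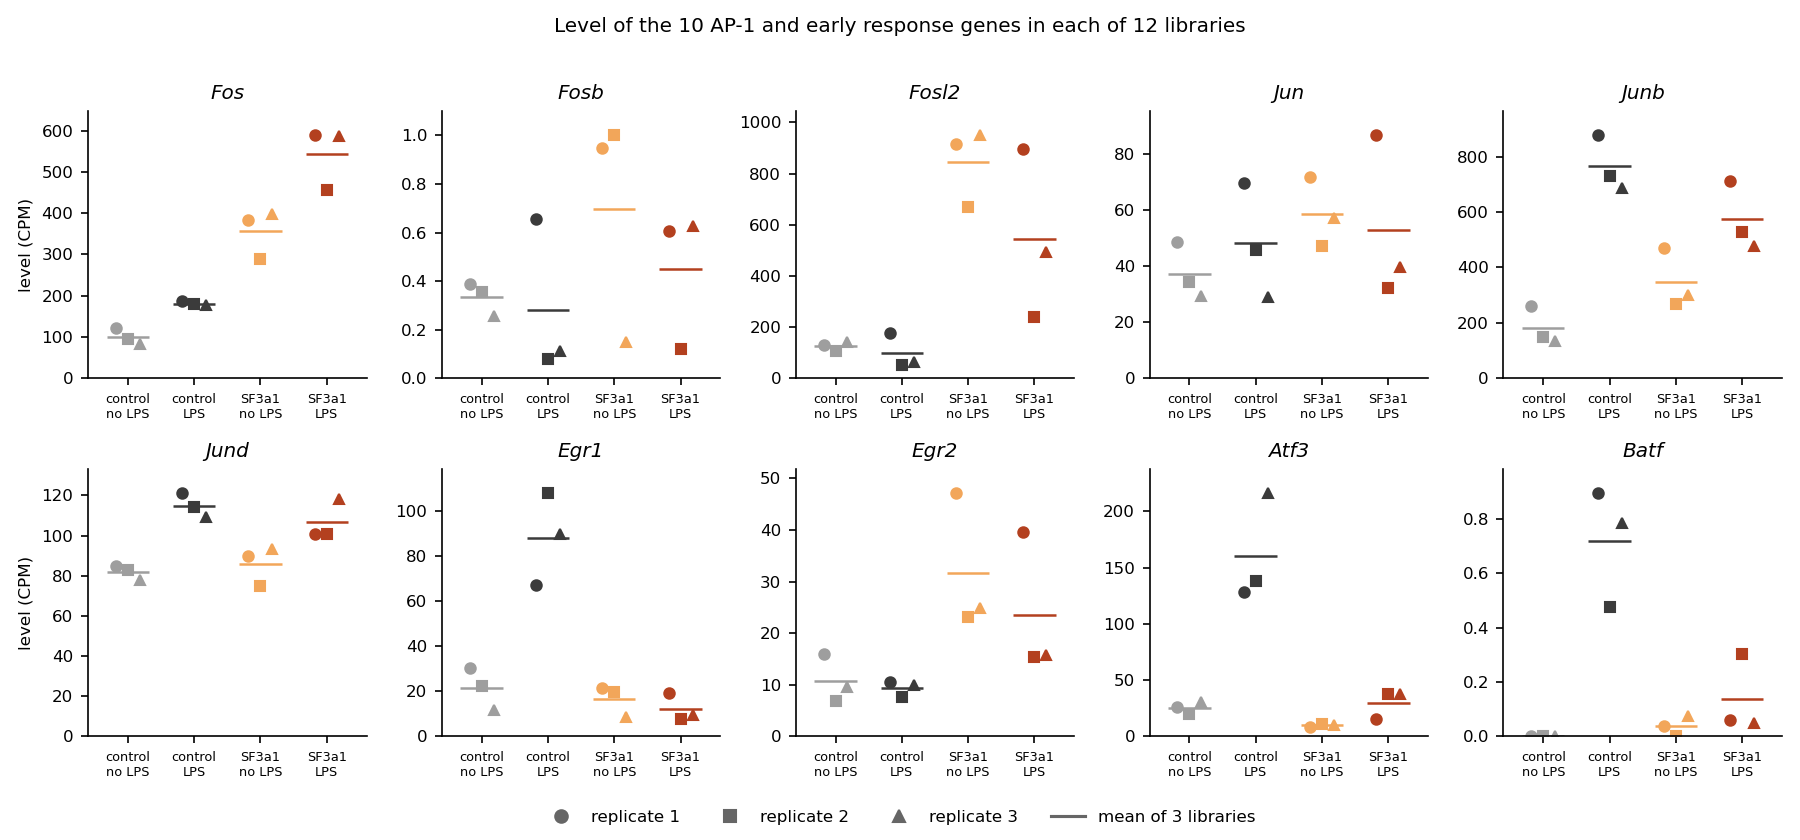
Level of each of the 10 genes (CPM, linear axes from 0, each panel with its own scale) in the 12 libraries; symbols mark the replicate number and lines the mean of 3 libraries. With SF3a1 siRNA Fos ran from 288 to 588 CPM against 82.2 to 188 CPM with control siRNA, while Atf3 and Egr1 were high in the 3 libraries with control siRNA and LPS.

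Each comparison was tested with the quasi-likelihood method of edgeR on all 14983 genes kept by the low-count filter, p-values were adjusted by Benjamini-Hochberg, and a gene was called at an adjusted p of 0.1 or less. Batf did not pass the filter, so 9 of the 10 members were tested here. LPS with control siRNA raised 5 of the 9 (Atf3, Junb, Egr1, Fos and Jund) and lowered 0, beside 32.1% of all tested genes called (13.8% higher and 18.3% lower). LPS with SF3a1 siRNA raised 2 (Atf3 and Fos) and lowered 0, beside 10.7% of all tested genes (6.6% higher and 4.06% lower). SF3a1 siRNA without LPS raised 4 (Fosl2, Fos, Egr2 and Junb) and lowered 1 (Atf3), beside 33.8% of all tested genes (13.7% higher and 20.1% lower). SF3a1 siRNA with LPS raised 3 (Fosl2, Fos and Egr2) and lowered 2 (Egr1 and Atf3), beside 38.8% of all tested genes (18.4% higher and 20.4% lower). The interaction, which is the difference between the LPS responses under the 2 siRNAs, was called for 1 member (Egr1, lower with SF3a1 siRNA), beside 3.47% of all tested genes (1.54% higher and 1.94% lower). The median log2 fold change of the 9 members was 0.49, -0.15, 0.93, 0.13 and -0.52 in these 5 comparisons, against -0.02, 0.01, -0.02, -0.04 and 0.04 over all tested genes. Groups did not overlap for 5, 4, 5 and 5 of the 9 members in the first 4 comparisons, beside 40.2, 24.8, 45.6 and 39.1% of all tested genes. In the fit blocked on replicate number, 5, 5, 6, 6 and 3 members were called in the 5 comparisons, beside 43.9, 20.8, 47.1, 50.9 and 11.7% of all tested genes. In replicates 2 and 3 alone, an alternative chosen after seeing the data, 6, 5, 6, 6 and 2 members were called, beside 34.6, 15.1, 41.3, 45.1 and 6.82%. The comparisons share libraries (both LPS comparisons and both SF3a1 comparisons use the same 4 groups), so their results are not independent of each other. With 3 libraries against 3, an exact permutation test cannot go below p = 0.1, which is why single genes were tested by the model.

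**Figure D2:**
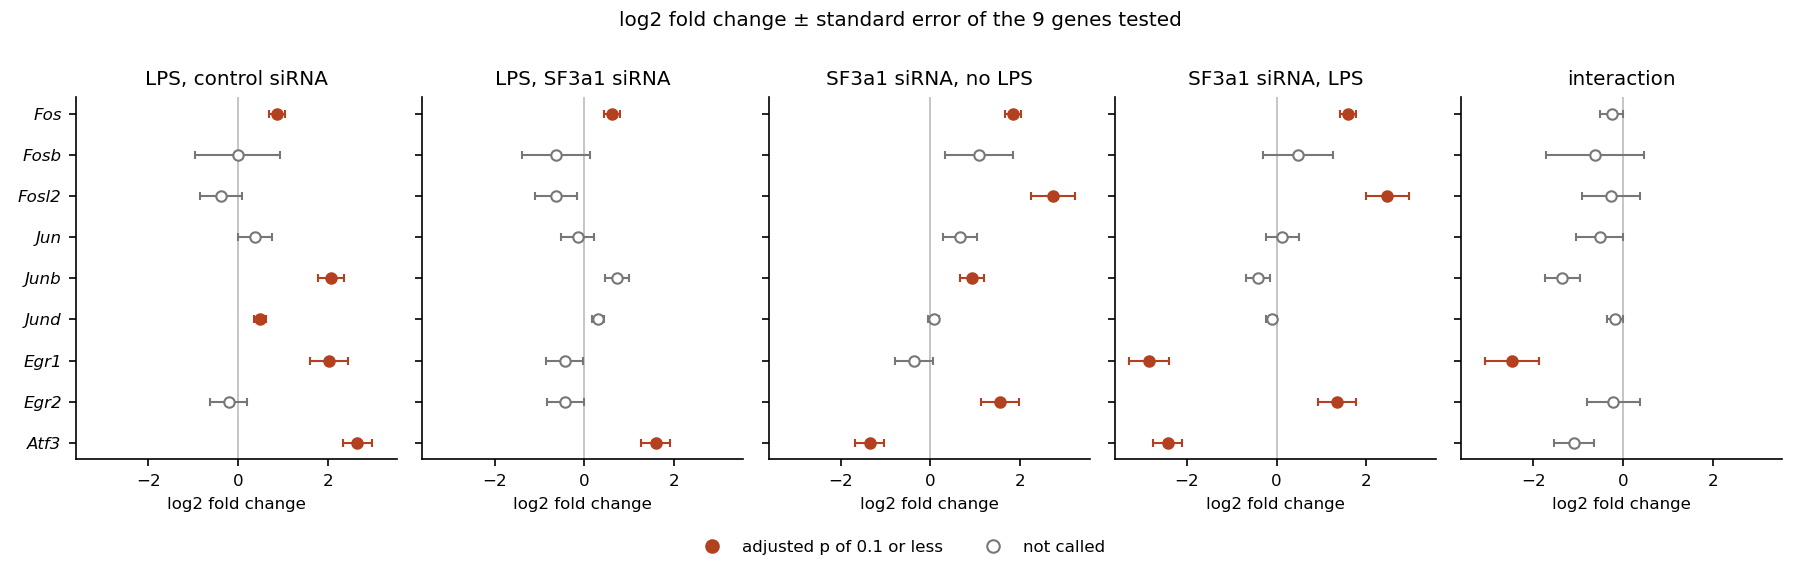
log2 fold change (points) with its standard error (bars) of the 9 tested genes in the 4 comparisons and the interaction; filled points have an adjusted p of 0.1 or less. Fosl2, Fos and Egr2 lie to the right of 0 in both SF3a1 panels and Atf3 to the left, while Egr1 lies furthest left with LPS (-2.84) and in the interaction (-2.47).

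Fos (ENSMUSG00000021250, chromosome 12, 85473890 to 85477273 of mm10, forward strand), the founding Fos family gene, was higher with SF3a1 siRNA than with control siRNA in every library. Its level with control siRNA was 122, 94.9 and 82.2 CPM without LPS and 188, 179 and 177 CPM with LPS. With SF3a1 siRNA it was 383, 288 and 398 CPM without LPS and 588, 457 and 587 CPM with LPS. No group overlapped another, and LPS-treated cells with control siRNA stayed below untreated cells with SF3a1 siRNA. SF3a1 siRNA raised the mean 3.58-fold without LPS (log2 fold change 1.84, standard error 0.182, adjusted p = 4.29e-05) and 3.0-fold with LPS (1.59, standard error 0.18, adjusted p = 7.03e-05). LPS raised it 1.82-fold with control siRNA (log2 fold change 0.86, standard error 0.178, adjusted p = 0.00285) and 1.53-fold with SF3a1 siRNA (0.61, standard error 0.176, adjusted p = 0.0558). The second LPS call was lost when control siRNA without LPS replicate 2, SF3a1 siRNA without LPS replicate 1 or 2, or SF3a1 siRNA with LPS replicate 1 or 3 was left out, with log2 fold changes of 0.48 to 0.67 and adjusted p of 0.103 to 0.218. It was also lost with only the compared groups fitted (0.61, adjusted p = 0.101) and at a false discovery rate of 0.05. The 2 LPS responses of Fos were not found to differ (interaction -0.25, 95% interval -0.74 to 0.23, adjusted p = 0.809).

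Fosl2 (ENSMUSG00000029135, chromosome 5, 32135801 to 32157842, forward strand) encodes Fra-2, a Fos family protein that is usually made later and stays longer than c-Fos. It had the largest rise of the 9 members with SF3a1 siRNA. Its level was 131, 108 and 144 CPM with control siRNA and 914, 668 and 949 CPM with SF3a1 siRNA without LPS. With LPS it was 177, 53.2 and 63.8 CPM with control siRNA and 898, 240 and 492 CPM with SF3a1 siRNA. All SF3a1 siRNA libraries were above all control libraries of the same LPS state, and replicate 1 was the highest of both LPS groups. The rise was 6.62-fold without LPS (log2 fold change 2.73, standard error 0.492, adjusted p = 0.00148) and 5.55-fold with LPS (2.47, standard error 0.487, adjusted p = 0.00223). The value with LPS was 3.22 without control siRNA with LPS replicate 1 and 1.9 without SF3a1 siRNA with LPS replicate 1, and it was called in both. LPS left no call on Fosl2, with log2 fold changes of -0.38 (adjusted p = 0.63) with control siRNA and -0.63 (adjusted p = 0.544) with SF3a1 siRNA. Here the deep replicate 1 libraries differed from the others. In replicates 2 and 3 alone, Fosl2 fell by 1.1 with control siRNA (adjusted p = 0.0166) and by 1.14 with SF3a1 siRNA (adjusted p = 0.0285) on the log2 scale, and without control siRNA with LPS replicate 1 the first value was -1.12 (adjusted p = 0.0673). In the fit blocked on replicate number, the value with SF3a1 siRNA was -0.81 (adjusted p = 0.0779), and with no filter it was -0.62 (adjusted p = 0.092).

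Fosb (ENSMUSG00000003545, chromosome 7, 19302696 to 19310051, reverse strand) was close to the detection limit, with 1 to 26 reads per library, and its levels ran from 0.0795 to 1.0 CPM. It was called in no comparison, and its intervals were wide: its log2 fold change with SF3a1 siRNA without LPS was 1.09, with a 95% interval of -0.39 to 2.57. Its 3 libraries with control siRNA and LPS differed from each other (0.658, 0.0795 and 0.112 CPM).

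Junb (ENSMUSG00000052837, chromosome 8, 84974484 to 84978718, reverse strand) has a single-exon coding transcript and encodes a Jun protein that activates transcription less strongly than c-Jun. LPS raised it in cells with control siRNA from 260, 151 and 134 CPM to 876, 731 and 688 CPM. With SF3a1 siRNA it was 470, 269 and 300 CPM without LPS and 712, 529 and 479 CPM with LPS. In each group replicate 1 was the highest, and the groups without LPS did not overlap each other. The LPS response with control siRNA was 4.21-fold (log2 fold change 2.07, standard error 0.281, adjusted p = 0.000138). With SF3a1 siRNA it was 1.65-fold and was not called (0.73, standard error 0.272, adjusted p = 0.149), although all 3 same-numbered pairs were higher with LPS. With replicate number as a block the latter was called at nearly the same size (0.75, adjusted p = 0.00156), as it was with no filter (0.73, adjusted p = 0.0105) and in replicates 2 and 3 alone (0.83, adjusted p = 0.00225). SF3a1 siRNA raised Junb 1.91-fold without LPS (log2 fold change 0.93, standard error 0.273, adjusted p = 0.0234), a call that was lost without SF3a1 siRNA without LPS replicate 1 (0.65, adjusted p = 0.107). With LPS, Junb under SF3a1 siRNA was at 74.9% of the control mean and was not called (-0.42, standard error 0.271, adjusted p = 0.278), but it was called with the block (-0.44, adjusted p = 0.0152) and in replicates 2 and 3 alone (-0.49, adjusted p = 0.0147). The interaction of -1.35 (standard error 0.384, adjusted p = 0.109) missed the threshold in the edgeR fit without the block and passed it with the block (-1.38, adjusted p = 0.000859), by DESeq2 (-1.4, adjusted p = 0.0275), by limma-voom (-1.38, adjusted p = 0.0958), with no filter (-1.32, adjusted p = 0.00091) and in replicates 2 and 3 alone (-1.49, adjusted p = 0.00217). It also passed without control siRNA without LPS replicate 1 (-1.76, adjusted p = 0.0293) and without SF3a1 siRNA with LPS replicate 1 (-1.53, adjusted p = 0.0821). The LPS response of Junb with SF3a1 siRNA passed when replicate 1 of either group without LPS was left out (0.69, adjusted p = 0.0882, without the control library and 1.01, adjusted p = 0.0619, without the SF3a1 siRNA library). Junb overlaps Prdx2 on the opposite strand in the annotation read here, which is not the one used for the counts. Whether counting used the strand is not given in the sources used here. Reads in such an overlap may have been added to Junb or set aside, which was not tested.

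Jund (ENSMUSG00000071076, chromosome 8, 70698949 to 70700616, forward strand), the Jun family gene known for steady expression in resting cells, varied least. Its level ran from 75.0 to 121 CPM over the 12 libraries. LPS raised it 1.4-fold with control siRNA, from 84.8, 83.0 and 77.8 CPM to 121, 114 and 109 CPM (log2 fold change 0.49, standard error 0.129, adjusted p = 0.0132), and no library of one group reached the other. With no filter on low counts this call was lost (0.46, adjusted p = 0.101). With SF3a1 siRNA the step from 89.8, 75.0 and 93.1 CPM to 101, 101 and 118 CPM was not called (0.31, standard error 0.129, adjusted p = 0.2) and was called with the replicate block (0.31, adjusted p = 0.0934). SF3a1 siRNA left Jund within 0.11 of control on the log2 scale, at 0.07 without LPS (95% interval -0.18 to 0.32) and -0.11 with LPS (95% interval -0.36 to 0.15).

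Jun (ENSMUSG00000052684, chromosome 4, 95049034 to 95052222, reverse strand), which encodes c-Jun, was the least abundant of the 3 Jun genes. It was called in none of the comparisons on the filtered genes of all 12 libraries without a block. Its level was 48.5, 34.3 and 29.3 CPM with control siRNA and 71.7, 47.3 and 57.2 CPM with SF3a1 siRNA without LPS, and the difference was not called (log2 fold change 0.65, standard error 0.378, adjusted p = 0.236). All 3 same-numbered pairs rose, and the change was called with the replicate block (0.67, adjusted p = 0.0171), with no filter (0.63, adjusted p = 0.0361), with only the compared groups (0.67, adjusted p = 0.0476) and in replicates 2 and 3 alone (0.71, adjusted p = 0.0249). With LPS the levels of 69.7, 45.9 and 28.9 CPM with control siRNA and 86.6, 32.3 and 39.6 CPM with SF3a1 siRNA overlapped. Replicate 1 held the highest Jun level of each group. Jun and Jund each overlap an antisense gene (Junos and Gm11175), which makes their counts uncertain in the same way as those of Junb.

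Atf3 (ENSMUSG00000026628, chromosome 1, 191170296 to 191218039, reverse strand) was raised by LPS under both siRNAs and was lower with SF3a1 siRNA under both conditions. With control siRNA it stood at 26.1, 19.6 and 30.4 CPM without LPS and at 128, 138 and 216 CPM with LPS. With SF3a1 siRNA it stood at 8.64, 10.9 and 10.3 CPM without LPS and at 15.1, 37.3 and 37.4 CPM with LPS. The 3 libraries with control siRNA and LPS were thus far above all others, and the libraries with SF3a1 siRNA and LPS spanned the level of control cells that had no LPS. LPS raised Atf3 6.34-fold with control siRNA (log2 fold change 2.66, standard error 0.329, adjusted p = 6.4e-05) and 3.0-fold with SF3a1 siRNA (1.59, standard error 0.326, adjusted p = 0.00905). SF3a1 siRNA lowered it to 39.3% of control without LPS (-1.35, standard error 0.324, adjusted p = 0.00814) and to 18.6% with LPS (-2.43, standard error 0.326, adjusted p = 0.000185). All 3 same-numbered pairs were lower in both. The interaction of -1.08 (standard error 0.447, adjusted p = 0.306) was not called, and was called with the replicate block (-1.11, adjusted p = 0.0711) and with no filter (-1.05, adjusted p = 0.0278).

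Batf (ENSMUSG00000034266, chromosome 12, 85686669 to 85709087, forward strand), whose protein pairs with Jun proteins at sites shared with IRF factors, was barely expressed. It had 0 reads in each of the 3 libraries with control siRNA and no LPS and 34, 6 and 14 reads with LPS. Counts summed over the group and scaled for depth were at least 23.5-fold higher, with the untreated group set to a floor of 3 counts in all. This bound is not on the fold of mean CPM that is given for the other members. With SF3a1 siRNA it had 1, 0 and 1 reads without LPS and 2, 5 and 1 reads with LPS. The level with LPS was 0.719 ± 0.217 CPM with control siRNA and 0.137 ± 0.143 CPM with SF3a1 siRNA, with no overlap of libraries. Batf failed the filter of the comparisons above and was tested only in alternative fits. With no filter it was called higher with LPS under control siRNA (adjusted p = 3.04e-06, with no fold given because the untreated group is at 0) and lower with SF3a1 siRNA in the presence of LPS (-2.51, standard error 0.872, adjusted p = 0.03). The latter value ran from -3.62, without SF3a1 siRNA with LPS replicate 2, to -2.12, without replicate 1 of that group, in the fits leaving out 1 library whose filter Batf passed. Batf passed only through the libraries with control siRNA and LPS, where it was high, so this range is no support for the call. Without control siRNA with LPS replicate 1 or 3, which held 34 and 14 of its 54 reads in that group, Batf failed the filter again, so how the calls rest on those libraries was not tested.

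Egr2 (ENSMUSG00000037868, chromosome 10, 67535475 to 67542188, forward strand), a zinc finger factor known in macrophage differentiation and alternative activation, was higher with SF3a1 siRNA in both conditions. Its level was 16.0, 6.79 and 9.58 CPM with control siRNA and 47.1, 23.1 and 24.8 CPM with SF3a1 siRNA without LPS. With LPS it was 10.5, 7.55 and 9.93 CPM with control siRNA and 39.7, 15.4 and 15.7 CPM with SF3a1 siRNA. Within each LPS state the 2 siRNA groups did not overlap, while groups of the same siRNA without and with LPS did. Replicate 1 was the highest in each group. The rise was 2.93-fold without LPS (log2 fold change 1.55, standard error 0.419, adjusted p = 0.0159) and 2.53-fold with LPS (1.34, standard error 0.421, adjusted p = 0.0294). The call with LPS was lost without SF3a1 siRNA with LPS replicate 1 (0.73, adjusted p = 0.172). LPS did not give a call on Egr2, with log2 fold changes of -0.21 with control siRNA (95% interval -1.03 to 0.61) and -0.42 with SF3a1 siRNA (95% interval -1.23 to 0.38). In replicates 2 and 3 alone the latter was called (-0.62, adjusted p = 0.0778).

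Egr1 (ENSMUSG00000038418, chromosome 18, 34859823 to 34864984, forward strand), the classical immediate early zinc finger gene, responded to LPS in cells with control siRNA, while no rise was called with SF3a1 siRNA. With control siRNA its level was 30.5, 22.3 and 11.8 CPM without LPS and 67.1, 108 and 90.0 CPM with LPS. With SF3a1 siRNA it was 21.5, 19.6 and 8.63 CPM without LPS and 19.3, 7.80 and 9.48 CPM with LPS. The libraries with control siRNA and LPS stood above the other 9, whose ranges overlapped. LPS raised Egr1 4.11-fold with control siRNA (log2 fold change 2.03, standard error 0.425, adjusted p = 0.00319), in all 3 same-numbered pairs. With SF3a1 siRNA the value was -0.44 (standard error 0.421, adjusted p = 0.684), and 1 of the 3 pairs was higher with LPS. SF3a1 siRNA lowered Egr1 to 13.8% of control with LPS (-2.84, standard error 0.441, adjusted p = 0.000487), and without LPS the value was -0.37 (95% interval -1.19 to 0.44, adjusted p = 0.567). The interaction was -2.47 (standard error 0.595, adjusted p = 0.0539), so the difference between the 2 LPS responses was itself called. That call was kept with the replicate block and under DESeq2 (-2.52, adjusted p = 0.00186), but it was lost when any 1 of 8 libraries was left out, which were replicates 2 and 3 of control siRNA without LPS, of control siRNA with LPS and of SF3a1 siRNA with LPS, and replicates 1 and 2 of SF3a1 siRNA without LPS (-2.53 to -2.22, adjusted p of 0.104 to 0.134). The plot of same-numbered libraries joined across LPS shows the steps of Egr1 beside those of 4 other members.

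**Figure D3:**
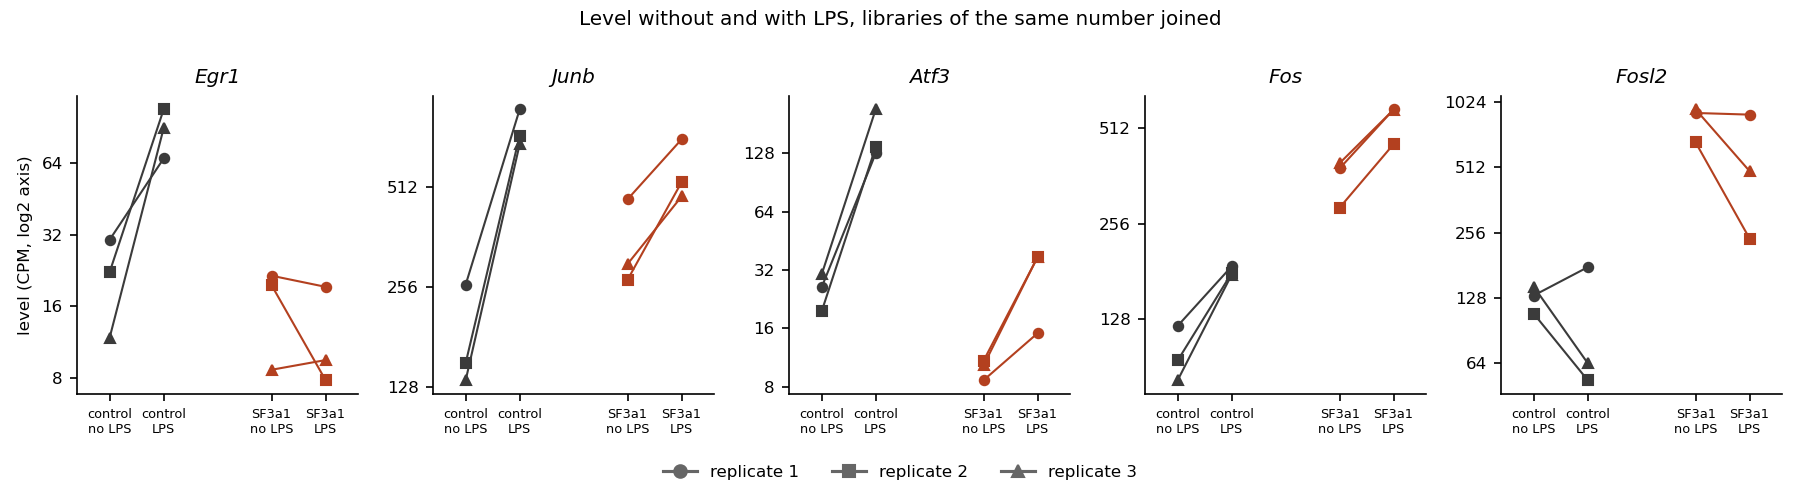
Level (CPM, log2 axis, each panel with its own scale) of 5 genes without and with LPS, with libraries of the same replicate number joined by a line; dark lines are control siRNA and red lines SF3a1 siRNA. Egr1 rose with LPS in 3 of 3 pairs with control siRNA and in 1 of 3 with SF3a1 siRNA, while Junb, Atf3 and Fos rose in 3 of 3 pairs under both.

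The shares of the members within each family are given as a description. Over the 3 Fos family members, the summed level was 66.8 ± 9.5 CPM per kb with control siRNA without LPS and 298 ± 51.7 CPM per kb with SF3a1 siRNA without LPS. Fosl2 made up 29.5 ± 5.74% of that sum with control siRNA and 43.2 ± 0.436% with SF3a1 siRNA, and the 3 libraries of the latter were nearly identical in this share. With LPS the Fosl2 share was 14.1 ± 7.92% with control siRNA and 22.9 ± 9.36% with SF3a1 siRNA, replicate 1 had the largest share in both, and the libraries of the 2 groups overlapped. In every same-numbered pair it was higher with SF3a1 siRNA (33.0, 14.5 and 21.3% against 23.2, 8.73 and 10.4%). Over the 3 Jun family members, the summed level went from 161 ± 42.7 CPM per kb without LPS to 507 ± 64.4 CPM per kb with LPS in cells with control siRNA, and from 261 ± 66.8 to 397 ± 73.2 CPM per kb with SF3a1 siRNA. Junb made up 61.2 ± 6.36% of the Jun sum without LPS and 83.5 ± 0.404% with LPS under control siRNA, and stood at 72.6 ± 4.2% and 79.5 ± 2.99% with SF3a1 siRNA, where the libraries overlapped. There the Junb share still rose with LPS in every same-numbered pair (from 77.3, 71.3 and 69.2% to 81.8, 80.5 and 76.1%). The share of Jun itself was 7.27 ± 0.205% and 7.09 ± 0.405% without LPS and 2.9 ± 0.891% and 4.0 ± 1.47% with LPS. These shares follow from the levels given above and were not tested on their own.

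**Figure D4:**
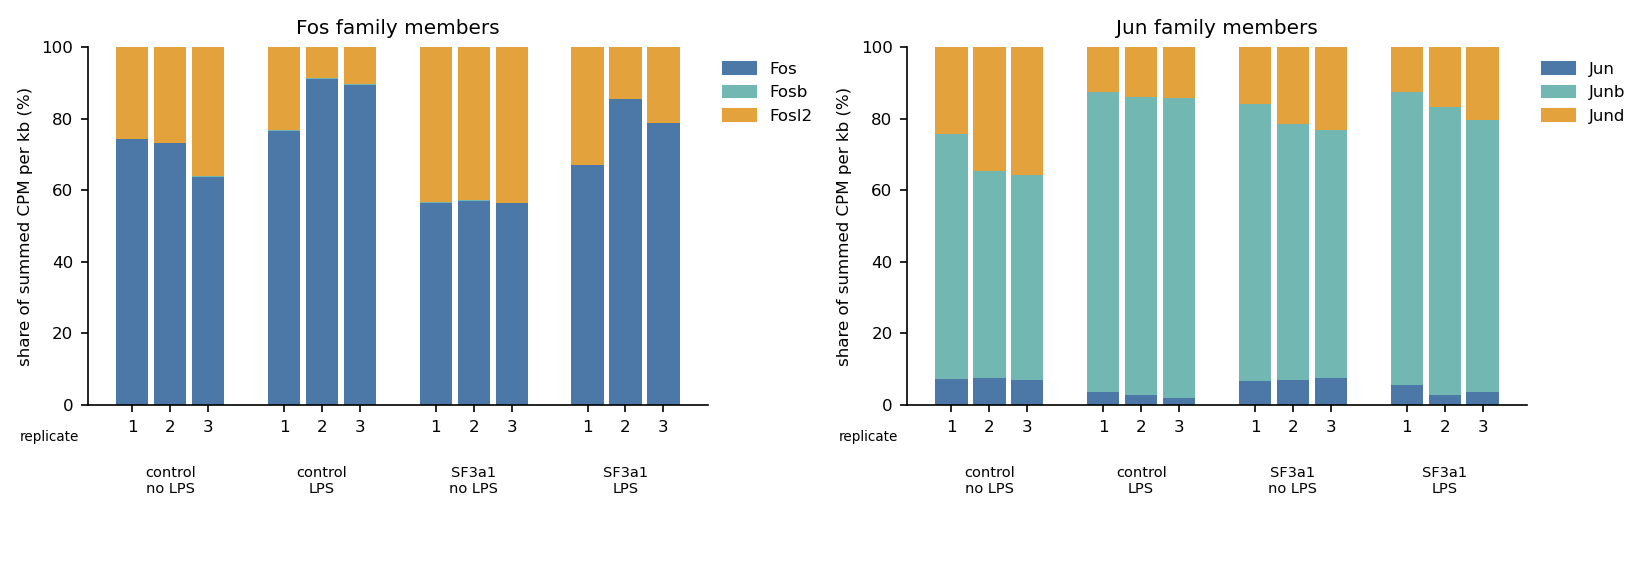
Share (%, stacked to 100) of each gene in the summed level (CPM per kb of coding transcript) of its family, for each of the 12 libraries, with Fos family members on the left and Jun family members on the right. Fosl2 takes its largest share with SF3a1 siRNA without LPS, and Junb takes 83.0 to 83.7% of the Jun sum in the 3 libraries with control siRNA and LPS.

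Because SF3a1 is a splicing factor, the exon bin counts of the members were examined too. The authors divided genes into bins between annotated exon boundaries, and 11 libraries had bin counts (control siRNA with LPS replicate 3 was not analysed here at this level). Bins exist only where an exon is annotated, so retention of an intron without a bin could not be seen. The single-exon coding transcripts of Jun, Junb and Jund hold no intron. Of the 10 members, 6 had bins that passed the filter in genes with at least 2 bins (Fos 10, Fosl2 4, Jun 5, Egr1 2, Egr2 11 and Atf3 8 bins, 40 in all). None of the 40 was called in any of the 4 comparisons by edgeR's diffSpliceDGE, and 0 had an unadjusted p under 0.05, by diffSpliceDGE or by limma-voom with diffSplice. Over all 153624 bins tested, 0.0801 and 0.0254% were called for LPS with control and SF3a1 siRNA, and 0.626 and 0.492% for SF3a1 siRNA without and with LPS. The smallest p among the members was 0.193, for bin 7 of Atf3 with LPS. Even with no change, some of the 40 bins would be expected to have an unadjusted p under 0.05, so the tests appear cautious for these bins. No call does not show that bin usage was equal.

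Bins 2 to 4 of Fos lie in intron 1 of its coding transcript (chromosome 12, 85474691 to 85474934). They cover only a part of that intron, and the other introns of the transcript hold no bin. Counts on these bins were few against the whole gene. With control siRNA without LPS they were 0.953, 0.509 and 0.246% of the Fos bin counts (63 of 6608, 13 of 2555 and 6 of 2437), and with SF3a1 siRNA 0.814, 0.738 and 0.921% (105 of 12904, 47 of 6372 and 62 of 6729). These are shares of summed bin counts, in which a read that spans bins is counted more than once, so no counting interval is given. With LPS the share was 0.663 and 0.617% in 2 control libraries and 0.682, 0.845 and 0.598% with SF3a1 siRNA. The groups overlapped without LPS and with LPS. The last bin, which holds the 3′ end of the gene, took 33.6 ± 2.94% of Fos bin counts with control siRNA and 34.0 ± 0.591% with SF3a1 siRNA without LPS. For Fosl2 the last bin took 75.8 ± 2.34 and 79.0 ± 3.64%, and for Atf3 the first listed bin took 58.3 ± 2.64 and 58.0 ± 2.65%.

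**Figure D5:**
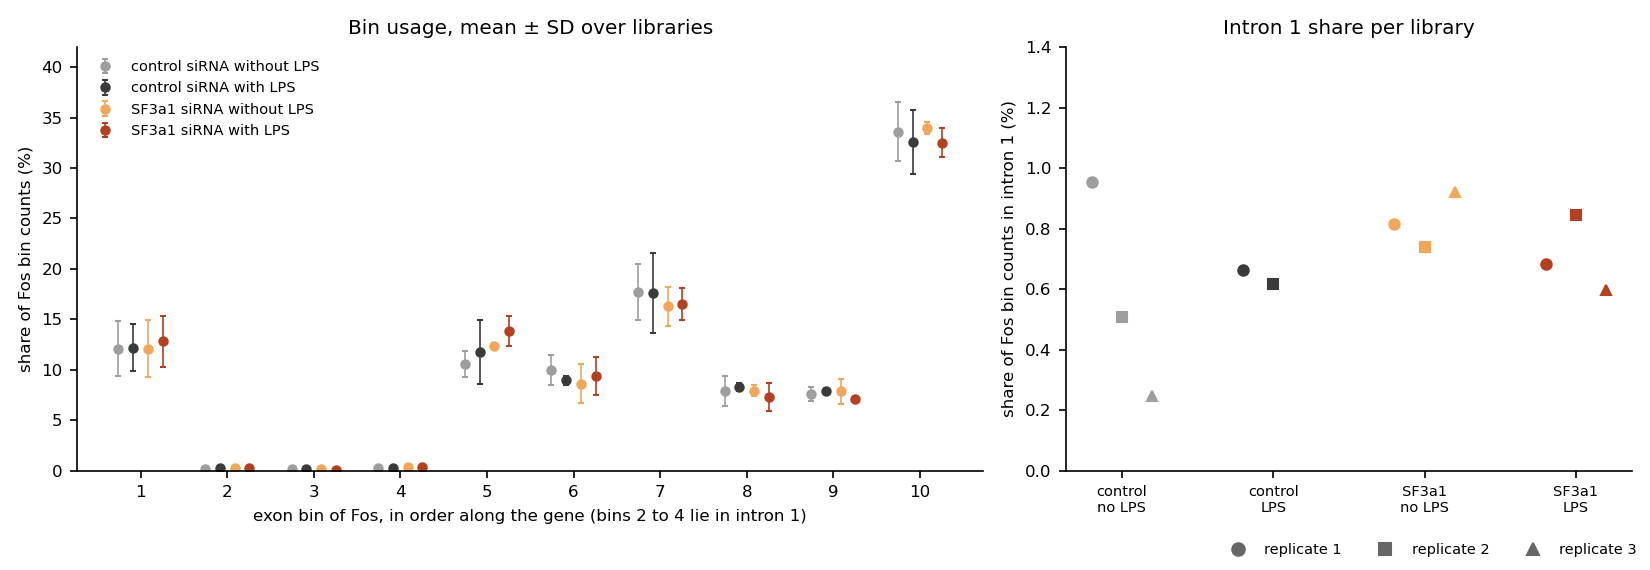
Left, share of the Fos bin counts (%) on each of its 10 bins, as mean ± SD over the 2 or 3 libraries of a group; right, share on the bins of intron 1 (%) in each of 11 libraries (points). The bins of intron 1 stay below 1% in all libraries and the groups overlap.

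Other leucine zipper factors moved in both directions. Of 27 tested genes of a list of AP-1 and related factors outside the members, 13 rose and 5 fell with LPS and control siRNA (66.7% called), and 10 rose and 1 fell with LPS and SF3a1 siRNA (40.7%). With SF3a1 siRNA, 10 rose and 2 fell without LPS (44.4%) and 9 rose and 7 fell with LPS (59.3%). The medians of the 4 log2 fold changes were 0.24, 0.35, 0.40 and 0.16. For the interaction, 0 of the 27 were called higher and 4 lower (14.8%). For this and the lists that follow, the shares of all tested genes called were 32.1, 10.7, 33.8 and 38.8% in the same order and 3.47% for the interaction. Fosl1, which encodes Fra-1, the remaining Fos family protein, rose from 8.61 ± 1.71 to 61.3 ± 4.57 CPM with SF3a1 siRNA without LPS (log2 fold change 2.83, standard error 0.297, adjusted p = 5.64e-05). Jdp2, a Jun dimerization protein that represses AP-1 sites, rose with SF3a1 siRNA in both LPS states. The step was from 97.4 ± 31.9 to 369 ± 116 CPM without LPS (1.92, adjusted p = 0.000556) and from 571 ± 96.2 to 1130 ± 274 CPM with LPS (0.98, adjusted p = 0.0211). Batf2, a relative of Batf induced by interferons, rose with LPS from 0.975 ± 0.29 to 57.8 ± 12.7 CPM with control siRNA and from 0.783 ± 0.258 to 4.88 ± 0.787 CPM with SF3a1 siRNA. The difference between these 2 responses of Batf2 was called (interaction -3.26, standard error 0.424, adjusted p = 0.00321), as it was for Fosl1 (-1.90, adjusted p = 0.029) and Cebpd (-1.87, adjusted p = 0.00245). Cebpd, a C/EBP factor of the acute phase, stood with LPS at 161 ± 3.39 CPM with control siRNA and 48.8 ± 9.4 CPM with SF3a1 siRNA. Maf reached 18.8 ± 11.6 CPM with LPS and control siRNA and 0.656 ± 0.222 CPM with LPS and SF3a1 siRNA (log2 fold change -4.88, adjusted p = 7e-05).

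Among 41 tested genes of a list of other immediate early response genes, 26 rose and 4 fell with LPS and control siRNA (73.2% called), and 17 rose and 1 fell with LPS and SF3a1 siRNA (43.9%). SF3a1 siRNA raised 19 and lowered 2 without LPS (51.2%) and raised 9 and lowered 6 with LPS (36.6%). The last share is near the 38.8% of all tested genes and is no result about the list. The median log2 fold change was 1.38, 0.63, 0.84 and 0.09 in this order. Ptgs2, which encodes the inducible cyclooxygenase COX-2, rose with SF3a1 siRNA without LPS from 29.8 ± 5.21 to 270 ± 51.4 CPM (3.18, standard error 0.197, adjusted p = 4.55e-06), and with LPS and control siRNA it reached 1000 ± 135 CPM. Myc rose from 11.4 ± 2.39 to 74.9 ± 16.2 CPM (2.71, adjusted p = 4.34e-05) and the orphan nuclear receptor gene Nr4a2 from 7.61 ± 0.424 to 53.2 ± 29.9 CPM (2.81, adjusted p = 0.00725) with SF3a1 siRNA without LPS. Klf4 and Id2 fell in the same comparison (-1.25, adjusted p = 0.0597, and -1.24, adjusted p = 0.00284). With LPS, Ier2 fell from 119 ± 28.2 to 52.9 ± 22.6 CPM (-1.17, adjusted p = 0.0159) and Pim1 from 155 ± 9.12 to 64.7 ± 15.6 CPM (-1.26, adjusted p = 0.0102) under SF3a1 siRNA. The interaction was called for 10 of the 41 genes (24.4%), 1 higher and 9 lower, among them Ptgs2 (-2.90, adjusted p = 0.000397), Myc (-2.30, adjusted p = 0.00853) and Gadd45a (-2.28, adjusted p = 0.0297).

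Of 32 tested kinases and factors that act upstream of immediate early genes, 7 rose and 10 fell with LPS and control siRNA (53.1% called), 5 rose and 3 fell with LPS and SF3a1 siRNA (25.0%), 6 rose and 8 fell with SF3a1 siRNA without LPS (43.8%), and 10 rose and 6 fell with SF3a1 siRNA with LPS. Ets2, a nuclear target of ERK signalling, rose with LPS from 60.2 ± 13.9 to 268 ± 53.2 CPM with control siRNA, and with SF3a1 siRNA without LPS it was at 144 ± 22.5 CPM (1.26, adjusted p = 0.00102). Map3k8 (TPL-2), the kinase that links TLR signals to ERK, reached 26.9 ± 1.64 CPM with LPS and control siRNA and 11.5 ± 1.55 CPM with LPS and SF3a1 siRNA (-1.22, adjusted p = 0.00095). Map2k1 (MEK1) stood at 432 ± 66.5 and 159 ± 34.1 CPM in the same groups (-1.45, adjusted p = 8.33e-05). Elk3, a ternary complex factor that partners serum response factor and can repress its targets, was higher with SF3a1 siRNA with LPS, at 136 ± 29.6 against 37.6 ± 4.99 CPM (1.85, adjusted p = 6.38e-05). Among 22 partners and regulators of AP-1 and EGR proteins, 4 rose and 2 fell with SF3a1 siRNA without LPS (27.3% called) and 6 rose and 3 fell with LPS (40.9%), and LPS raised 3 and lowered 4 with control siRNA (31.8%) and raised 1 and lowered 1 with SF3a1 siRNA (9.09%). These 4 shares are near those of all tested genes (33.8, 38.8, 32.1 and 10.7%) and are no result about the list. The interaction was called higher for 1 and lower for 0 of the 32 upstream genes (3.12%), and for 0 of the 22 partners and regulators. Nfatc1, a factor that binds DNA together with AP-1, rose with SF3a1 siRNA from 768 ± 105 to 1990 ± 183 CPM without LPS (1.38, adjusted p = 0.000133). In LPS-treated cells, Irf8, a partner of BATF, was lower with SF3a1 than with control siRNA, at 35.3 ± 12.9 against 169 ± 60.4 CPM (-2.26, adjusted p = 0.000309). Irf4, also a partner of BATF, was higher in the same comparison, at 11.4 ± 1.55 against 5.61 ± 0.918 CPM (1.01, adjusted p = 0.022).

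Genes known as AP-1 or EGR targets in macrophages went in both directions with SF3a1 siRNA in the presence of LPS. Of 30 tested, LPS raised 24 and lowered 1 with control siRNA (83.3% called), and raised 23 and lowered 1 with SF3a1 siRNA (80.0%). SF3a1 siRNA raised 17 and lowered 0 without LPS (56.7%), and raised 10 and lowered 7 with LPS (56.7%), with medians of 1.49 and -0.04. For the interaction, 0 of the 30 were called higher and 8 lower (26.7%, median -0.99), beside 3.47% of all tested genes called. Plau, the gene of the urokinase protease, stood with LPS at 67.6 ± 34.6 CPM with control siRNA and at 461 ± 64.0 CPM with SF3a1 siRNA (2.77, standard error 0.355, adjusted p = 0.000141), and Vegfa at 54.8 ± 14.0 and 225 ± 119 CPM (2.04, adjusted p = 0.00765). In the opposite direction, Nos2, the inducible nitric oxide synthase, went from 343 ± 19.2 to 44.0 ± 4.07 CPM (-2.96, adjusted p = 7.51e-06), Il6 from 21.0 ± 8.81 to 1.59 ± 0.5 CPM (-3.73, adjusted p = 0.000321) and Timp1 from 59.6 ± 1.57 to 13.4 ± 4.3 CPM (-2.15, adjusted p = 0.000173). Of 19 tested stress genes, 8 rose and 3 fell with SF3a1 siRNA without LPS (57.9% called) and 6 rose and 3 fell with LPS (47.4%), and LPS raised 13 and lowered 1 with control siRNA (73.7%) and raised 6 and lowered 0 with SF3a1 siRNA (31.6%). Mdm2, Sesn2 and Cdkn1a had the largest rises of the list without LPS (3.0, 2.82 and 2.55), and Chac1, Trib3 and Asns were the 3 that fell (-2.14, -1.91 and -0.72). For the interaction, 0 of the 19 stress genes were called higher and 3 lower (15.8%).

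The genes whose levels ran most like each member over the 12 libraries were listed by the Pearson correlation of log2 CPM among 13229 genes averaging 1 CPM or more, as a description. Fos ran closest to Aoc2 (0.982) and Gosr1 (0.981), Fosl2 to Atp6v1a (0.985), Junb to Itgax (0.983), Jund to Actg1 (0.949), Jun to Wipi2 (0.956), Egr1 to Adam17 (0.935), Egr2 to Smpd1 (0.95), Atf3 to Gm14005 (0.98) and Fosb to Elf4 (0.866). Among the members, Fosl2 and Egr2 ran most alike (0.89), followed by Junb and Jund (0.85), and Fosl2 and Atf3 ran most opposite (-0.79). The 12 points fall into 4 groups and share library depth.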

How the data were processed

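PolyA RNA from RAW264.7 cells was sequenced on an Ion Proton platform. Per the labels' processing notes and the study's methods, the authors mapped reads with GSNAP to mm10, kept uniquely mapping reads, and deposited raw counts per gene and per exon bin made with HTSeq. Reads that the counting assigned to no gene (17.75 to 27.2% per library) stayed out of library sizes and tests. Use of strand in counting is not given in the sources used here.

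Gene counts of all 12 libraries were fitted with edgeR 4.0.16 (TMM scaling, filterByExpr, quasi-likelihood test on group means, Benjamini-Hochberg adjustment, false discovery rate of 0.1), in R 4.3.3, and exon bins of 11 libraries with diffSpliceDGE. Alternatives were DESeq2 1.42.0 and its size factors, limma-voom (limma 3.58.1), no filter, a replicate block, the compared groups alone, a false discovery rate of 0.05 and leaving out each library. Replicates 2 and 3 alone were added after seeing the data. Deviations from group means correlated between same-numbered libraries in all 18 pairs (0.14 to 0.60, median 0.36). Between libraries of different number the correlations ran from -0.52 to 0.35 (median -0.31), with 10 of 36 over 0.1. The ranges overlap, but all same-numbered pairs were over 0.1, so libraries with the same number in the labels deviated together. Deviations from a group mean sum to 0, so positive values between same-numbered libraries push the others below 0. Whether the pattern comes from paired handling or from replicate 1 differing from the others was not tested.

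The members and gene lists were chosen with earlier results of these data known. Named genes are the members, Sf3a1, the 3 called genes of each list with the largest and the 3 with the smallest log2 fold change per comparison (mean of at least 1 CPM), and the genes most correlated with each member. Of these, examples are printed. Scripts were tested on simulated data. Protein sequences were not analysed here.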

Additional observations from a re-analysis of the deposited data

Results flagged for a closer look

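The effect of SF3a1 siRNA on Egr1 was tested for a difference between the conditions without and with LPS, and the difference was called. It was -2.47 on the log2 scale (standard error 0.595, 95% interval -3.64 to -1.30, edgeR adjusted p = 0.0539), with Egr1 at 76.9% of control without LPS and at 13.8% with LPS. Egr1 was lower with SF3a1 siRNA in 3 of 3 same-numbered pairs in both conditions. The call was kept with the replicate block (-2.59, edgeR adjusted p = 0.00505), by DESeq2 (-2.52, adjusted p = 0.00186) and by limma-voom (-2.5, adjusted p = 0.0602). It was also kept with DESeq2 size factors, with no filter and in replicates 2 and 3 alone. In the edgeR fit without the block it was lost at a false discovery rate of 0.05. It was lost there too when any 1 of 8 of the 12 libraries was left out (adjusted p of 0.104 to 0.134).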

How the results depend on the processing

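The number of members called for LPS with SF3a1 siRNA (2) was 4 with no filter (which tested all 10 members), 5 with the replicate block, 1 with only the compared groups, 5 in replicates 2 and 3 alone and 1 at a false discovery rate of 0.05, and over all genes (1598) it was 3115 with the block. For the interaction the number of members (1) was 3 with no filter, 2 with DESeq2, 2 with limma-voom, 3 with the block, 2 in replicates 2 and 3 alone and 0 at a false discovery rate of 0.05. The number of genes called for the interaction (520) was 930, 966, 1756, 1012 and 306 with no filter, DESeq2, the block, replicates 2 and 3 alone and a false discovery rate of 0.05. The cause of these shifts was not tested. Beside the calls given with each gene above, the replicate block changed no other call of a member.

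Leaving out 1 library, where 10 of the 12 fits also tested Batf, gave 5 to 6 members and 3985 to 5023 genes called for LPS with control siRNA, 1 to 3 and 1050 to 2005 for LPS with SF3a1 siRNA, 4 to 5 and 3881 to 5627 for SF3a1 siRNA without LPS, 5 to 6 and 4744 to 5993 with LPS, and 0 to 2 and 273 to 711 for the interaction. Batf entered 10 of those fits only through the group where it was high, control siRNA with LPS. No exon bin of a member was called under any setting run (0 in each).

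Values that changed sign were called in neither fit. For LPS with control siRNA, Fosb (-0.01) was 0.02 with DESeq2 size factors and Egr2 (-0.21) was 0.10 in replicates 2 and 3 alone. In the latter setting Jun was -0.05 for SF3a1 siRNA with LPS and Fosb 0.93 for the interaction. Leaving out 1 library gave Fosb -1.73 to 0.34, Egr2 -0.45 to 0.22 and Jun -0.01 to 0.63 for LPS with control siRNA, Jun -0.71 to 0.11 and Sf3a1 -0.02 to 0.38 for LPS with SF3a1 siRNA, Egr1 -0.61 to 0.07 for SF3a1 siRNA without LPS, and Jun -0.42 to 0.51 for SF3a1 siRNA with LPS. For the interaction it gave Fosb -1.03 to 1.1, Fosl2 -0.83 to 0.49 and Egr2 -0.82 to 0.19. Fosb had at most 26 reads in a library and Batf at most 34.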
